A study of Mus musculus with 6 samples.

Results

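The Id and Smad genes downstream of bone morphogenetic protein (BMP) were described in MLO-Y4 cells with and without low-intensity pulsed ultrasound (LIPUS). The members were chosen by symbol (Id1, Id2, Id3, Id4, Smad1, Smad3, Smad5, Smad6, Smad7 and Smad9), and all 10 were found among the 53797 genes of the deposited table. MLO-Y4 is a mouse cell line with the features of osteocytes, the cells embedded in bone matrix. The LIPUS group was 3 cultures stimulated for 20 min at 1.5 MHz and 30 mW/cm2 and then rested for 30 min before RNA extraction, and the Control group was 3 cultures to which no ultrasound was applied. The cells grew on collagen, and stimulated and control wells shared a plate in which the transducers of the control wells were unplugged. The study names ultrasound leaking into control wells as possible, and the exposure of those wells is not known from these data. Its text calls the RNA samples independent repeats, while its statement on statistics exempts the RNA-seq from independent repetition, so what the pooled libraries replicate is not settled. RNA was measured as FPKM, in which fragments are scaled to exon length and to the number of mapped reads, and the authors deposited a single FPKM for each group, in which the 3 libraries are pooled. No value of a single library and no count was analysed here, so no SD, depth per library, interval or p-value is given, and a control library that the study describes as standing apart could not be left out. Each difference below compares 2 pooled values and has no replicate check here, since the authors' own tests were not used.

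Secreted BMPs bind pairs of receptor kinases at the cell surface, and these phosphorylate the receptor Smads of the BMP branch, Smad1, Smad5 and Smad9. The phosphorylated Smads join Smad4, enter the nucleus and bind DNA. Id1, Id2 and Id3 are among the best known direct targets of these complexes. Id proteins are helix-loop-helix proteins without a DNA-binding region, and they hold E proteins and other partners away from DNA. Smad3 carries the signal of TGF-beta and activin. Smad6 and Smad7 are inhibitory Smads that are themselves induced by the pathway, Smad6 acting mainly on the BMP branch and Smad7 on both branches. In bone, this pathway is known for driving cells of the osteoblast lineage towards matrix formation.

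The promoter sequences of the 4 lower members for which the RefSeq promoter table (GRCm38.p6) had an entry and that differed by more than 0.32 on the log2 scale defined below are shown, because these are the stretches in which letters shared by the lower genes could be looked for. Each runs 5′ to 3′ on the strand of its gene, from 250 bases before to 50 bases after the annotated start site. The capitals mark GTCT or AGAC (the Smad binding element), GGCGCC (a GC-rich site bound by Smads of the BMP branch) and CANNTG (the E-box, the site of the bHLH proteins that Id proteins oppose), searched on both strands. The windows are chr12:25096043-25096342 on the minus strand for Id2, chr4:136143572-136143871 on the plus strand for Id3, chr9:64022010-64022309 on the minus strand for Smad6 and chr3:54755332-54755631 on the plus strand for Smad9.
Id2: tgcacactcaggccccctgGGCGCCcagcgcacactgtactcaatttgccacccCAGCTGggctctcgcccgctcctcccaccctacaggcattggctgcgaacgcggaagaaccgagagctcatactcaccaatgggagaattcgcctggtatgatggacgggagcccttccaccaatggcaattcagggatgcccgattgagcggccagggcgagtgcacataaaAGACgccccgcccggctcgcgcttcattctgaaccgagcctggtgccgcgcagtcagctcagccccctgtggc
Id3: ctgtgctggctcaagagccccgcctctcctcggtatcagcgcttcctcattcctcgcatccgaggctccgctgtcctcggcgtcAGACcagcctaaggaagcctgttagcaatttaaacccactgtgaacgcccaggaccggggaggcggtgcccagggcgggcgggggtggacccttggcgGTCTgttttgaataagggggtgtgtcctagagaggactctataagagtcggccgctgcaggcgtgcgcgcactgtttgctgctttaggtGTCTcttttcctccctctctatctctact
Smad6: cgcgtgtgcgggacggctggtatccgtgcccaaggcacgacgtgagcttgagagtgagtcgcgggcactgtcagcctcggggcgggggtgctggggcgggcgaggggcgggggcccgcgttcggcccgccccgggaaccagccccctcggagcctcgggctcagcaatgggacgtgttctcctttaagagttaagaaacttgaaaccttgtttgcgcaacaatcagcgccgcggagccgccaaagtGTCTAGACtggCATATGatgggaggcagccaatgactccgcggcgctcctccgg
Smad9: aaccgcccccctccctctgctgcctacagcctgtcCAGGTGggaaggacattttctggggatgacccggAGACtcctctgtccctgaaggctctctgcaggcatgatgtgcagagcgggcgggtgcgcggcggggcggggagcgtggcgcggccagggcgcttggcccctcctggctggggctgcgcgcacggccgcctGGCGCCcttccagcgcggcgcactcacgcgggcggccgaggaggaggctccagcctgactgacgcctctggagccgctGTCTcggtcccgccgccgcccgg

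Windows were read for 8 of the members (Id1 and Smad7 are not among them), with 3 alternative windows for Smad5, which counted if any of them held the motif, while the background counts each window once. Of these 3 windows, 2 that overlap held GGCGCC and an E-box and the other held neither. GTCT or AGAC occurred in 6 of these 8 members (Id2, Id3, Smad3, Smad5, Smad6 and Smad9), but such short letters occurred in 88% of all 32851 windows of the table and in 80.9% of its GC-rich windows. GGCGCC occurred in 4 of the 8 (Id2, Id4, Smad5 and Smad9), against 11.9% of all windows and 30.9% of the 9690 windows with a GC content of at least 60%. The members' windows had a GC content of up to 73.7% and none under 60%, against a median of 52.7% over the table, so the share among GC-rich windows is the closer background. An E-box occurred in 4 of the 8 (Id2, Smad5, Smad6 and Smad9), against 72.3% of all windows and 59% of the GC-rich ones. In the Smad6 window, GTCT and AGAC stood directly side by side as GTCTAGAC, a palindrome that spans the start site and occurred in 0.213% of all windows; it was picked out after the sequence was seen. The cyclic AMP response element TGACGTCA occurred in none of the 8 members, in 1.79% of all windows and in 3.03% of the GC-rich ones. The Egr site GCGNGGGCG occurred in the window of Id4 alone, at 2 places, against 5.55% of all windows and 16.6% of the GC-rich ones. That window ends before the GENCODE gene model of Id4 begins, so the annotations differ on its start site. The windows of Id2 and Id3 lie wholly inside the GENCODE spans of these genes, as does the Smad5 window that held neither GGCGCC nor an E-box. The start sites of these windows thus lie downstream of the first base of the gene. These matches describe letters in a window and not bound sites.

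The 3 Id genes that the authors' program tested were all lower with LIPUS, and by a similar proportion. Id1 had an FPKM of 105 in the Control group and 79.8 in the LIPUS group. Id2 had an FPKM of 91.6 in the Control group and 65.9 in the LIPUS group. Id3 had an FPKM of 56.5 in the Control group and 40.8 in the LIPUS group. The LIPUS value of each of these inhibitors of bHLH factors was thus lower, with a percent change of -23.9% for Id1, -28.1% for Id2 and -27.8% for Id3. Differences are given from here on as log2((LIPUS FPKM + 1) / (Control FPKM + 1)), in which the added 1 makes the difference of low genes look smaller. On this scale Id1 differed by -0.39, Id2 by -0.47 and Id3 by -0.46. A lower ratio than that of Id2 was found for 6.35% of the 8145 tested genes, than that of Id3 for 6.53%, and than that of Id1 for 9.06%. None of the 3 reached a 1.5-fold difference, which is 0.58 on the log2 scale, and all 3 passed a smaller limit of 0.32 on the log2 scale.

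Id1, Id2 and Id3 stood in the same order in both groups, and their summed FPKM was 253 in the Control group and 186 in the LIPUS group. Id1 made up 41.5% of this sum in Control and 42.8% in LIPUS cells. Id2 made up 36.2% and 35.3%, and Id3 made up 22.3% and 21.9%. Shares and ratios within a group do not depend on how that group was scaled. The Id1 to Id3 ratio was 1.86 in Control and 1.96 in LIPUS cells, and the Id2 to Id3 ratio 1.62 in both groups. Since the values are pooled, no spread is known against which these ratios could be set. Id4, the remaining family member, had an FPKM of 0.762 in the Control group and 0.470 in the LIPUS group and received no test and lay far below the least abundant tested gene. The higher of the group values of a tested gene was at least 6.70 FPKM. At this level the log2 difference of Id4, -0.26, cannot be read as a change, and 2 annotated noncoding genes, A330033J07Rik and Gm49291, overlap it on the opposite strand, while the use of strand in counting is not given in the sources used here. The locus deposited for Id4 also reaches over A330033J07Rik, whereas those of the other 9 members equal their gene models. Id1 lies on chromosome 2 of GRCm38 from 152736251 to 152737410, Id2 on chromosome 12 from 25093799 to 25097140, Id3 on chromosome 4 from 136143497 to 136145755 and Id4 on chromosome 13 from 48261228 to 48266026. These are short genes of 1160 to 4799 bases, while the Smad members span 28407 to 111228 bases. In the principal transcripts of GENCODE M21, Id1 has 2 exons, Id2 has 4, and Id3 and Id4 have 3 each.

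**Figure D1:**
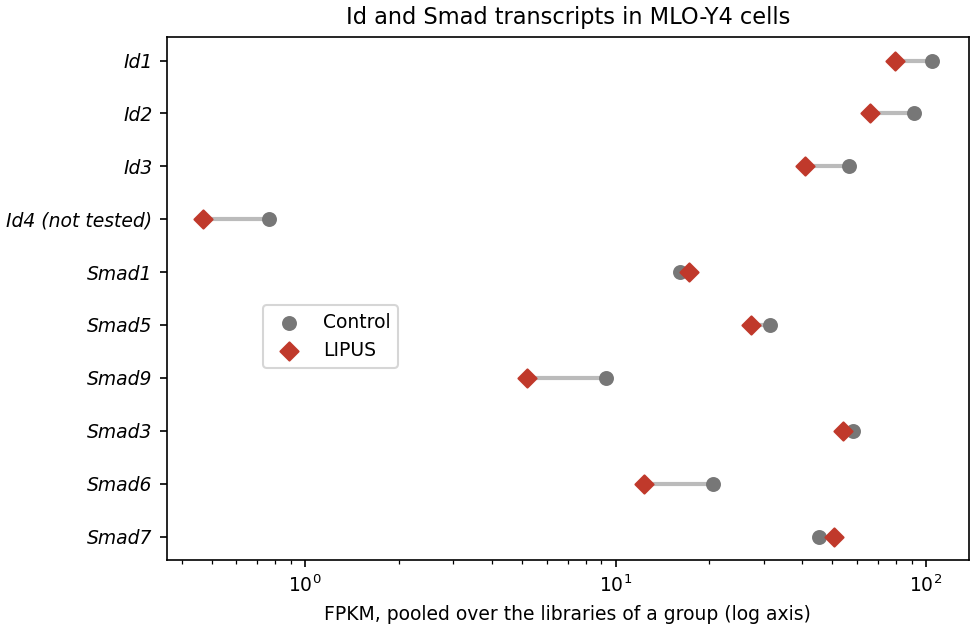
FPKM of the 10 Id and Smad genes (log axis), with grey circles for the pooled Control value and red diamonds for the pooled LIPUS value. The LIPUS value lies left of the Control value for the 4 Id genes, Smad3, Smad5, Smad6 and Smad9, and right of it for Smad1 and Smad7.

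Among the receptor Smads of the BMP branch, Smad9 was lower with LIPUS while Smad1 and Smad5 were close to their Control values. Smad9, also known as Smad8, had an FPKM of 9.34 in the Control group and 5.19 in the LIPUS group, a percent change of -44.4% and a log2 difference of -0.74. A lower ratio was found for 2.03% of all tested genes. Smad9 was the least abundant of the tested members, and low genes differed by 1.5-fold more often. Lower values by at least 1.5-fold were found for 3.97% of all tested genes and for 9.19% of the 1426 tested genes with a mean FPKM under 10, the range in which Smad9 lies. Smad5, the most abundant Smad of this branch, had an FPKM of 31.5 in the Control group and 27.3 in the LIPUS group (log2 difference -0.20). Smad1 had an FPKM of 16.2 in the Control group and 17.2 in the LIPUS group (0.09). For Smad5, 20.7% of the tested genes had a lower ratio, and for Smad1 63.3%.

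Smad9 made up 16.4% of the summed FPKM of Smad1, Smad5 and Smad9 in the Control group and 10.4% in the LIPUS group, shares that likewise have no known spread. Smad1 made up 28.3% and 34.7%, and Smad5 made up 55.3% and 54.9%. The sum itself was 57.0 FPKM in Control and 49.7 FPKM in LIPUS cells, a log2 difference of -0.19. The Smad9 to Smad1 ratio was 0.578 in Control and 0.301 in LIPUS cells. Smad1, Smad5 and Smad9 are related genes, and how reads that match several of them were assigned is not given in the sources used here. Smad9 lies on chromosome 3 from 54755582 to 54801257, Smad1 on chromosome 8 from 79338395 to 79399518 and Smad5 on chromosome 13 from 56703010 to 56742377. No other annotated gene overlaps Smad9 or Smad1, while 3 small noncoding RNA genes overlap Smad5.

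Of the inhibitory Smads, Smad6 was lower with LIPUS and Smad7 was slightly higher. Smad6, the inhibitor that acts mainly on the BMP branch, had an FPKM of 20.6 in the Control group and 12.3 in the LIPUS group, a log2 difference of -0.69. A lower ratio was found for 2.42% of the tested genes. Smad7, which restrains both branches, had an FPKM of 45.2 in the Control group and 50.4 in the LIPUS group (0.15), and 72.5% of the tested genes had a lower ratio. The Smad6 to Smad7 ratio was 0.456 in Control and 0.245 in LIPUS cells, and Smad6 made up 31.3% and 19.7% of their sum. That sum was 65.7 FPKM in Control and 62.7 FPKM in LIPUS cells. Smad7 lies on chromosome 18 from 75367529 to 75395935, and no other annotated gene overlaps Smad6 or Smad7.

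Smad3, the receptor Smad of the TGF-beta branch, was the most abundant of the Smad members in both groups. It had an FPKM of 58.2 in the Control group and 54.0 in the LIPUS group, a log2 difference of -0.11, and 32.9% of the tested genes had a lower ratio. Smad3 and Smad6 are neighbours on the minus strand of chromosome 9, from 63646767 to 63757994 and from 63953076 to 64022059, with 195081 bases between them. Smad6 passed 1.5-fold and its neighbour Smad3 did not. Smad2, the other TGF-beta receptor Smad and no member, had an FPKM of 25.3 in the Control group and 17.0 in the LIPUS group (-0.55), below 1.5-fold on this scale. Smad4, the partner of all receptor Smads, had an FPKM of 39.5 in the Control group and 40.7 in the LIPUS group (0.04).

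**Figure D2:**
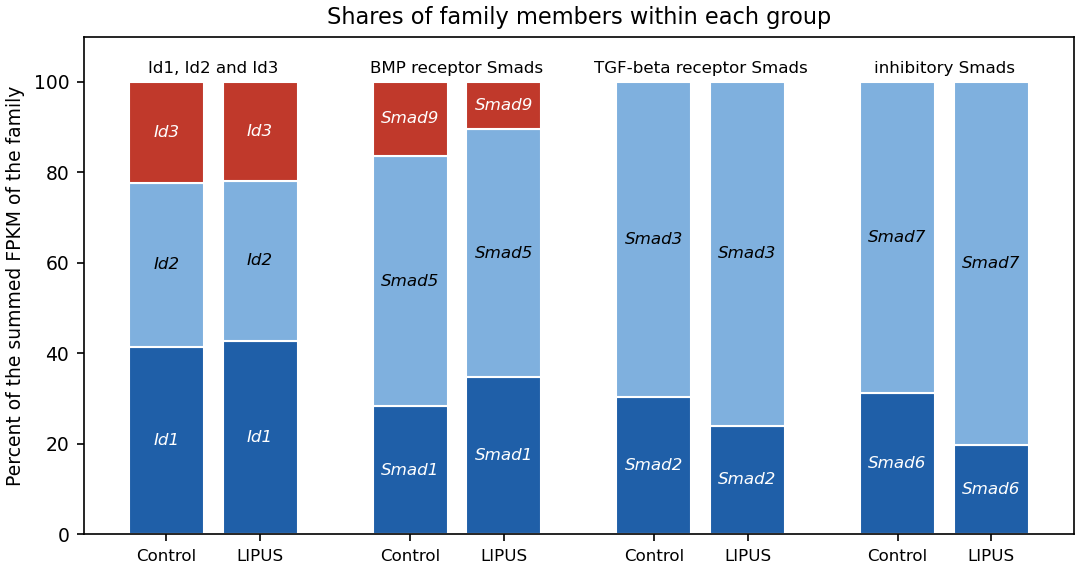
Shares of the summed FPKM of each family, in percent, in the pooled Control and LIPUS groups. The share of Id1 is 41.5% in Control and 42.8% in LIPUS cells, the share of Smad9 is 16.4% and 10.4%, that of Smad2 30.3% and 24.0%, and that of Smad6 31.3% and 19.7%.

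Taking the members as a list, 7 of the 9 tested members were lower with LIPUS and 2 were higher, against 4006 lower and 4139 higher among all tested genes. Their median log2 difference was -0.39, against 0.0039 over all tested genes. At least 1.5-fold lower were 2 of the 9, Smad6 and Smad9, where 3.97% of all tested genes were. None of the 9 was at least 1.5-fold higher, where 4.09% of all tested genes were. Past 0.32 on the log2 scale, 5 of the 9 were lower (Id1, Id2, Id3, Smad6 and Smad9), where 12.5% of all tested genes were, and none was higher, where 12.6% were. Closest to the 1.5-fold limit were Smad6 at -0.69 among the members past it and Id2 at -0.47 among those that did not reach it. With so few members and no replicate values, these counts are a description of 2 pooled groups.

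**Figure D3:**
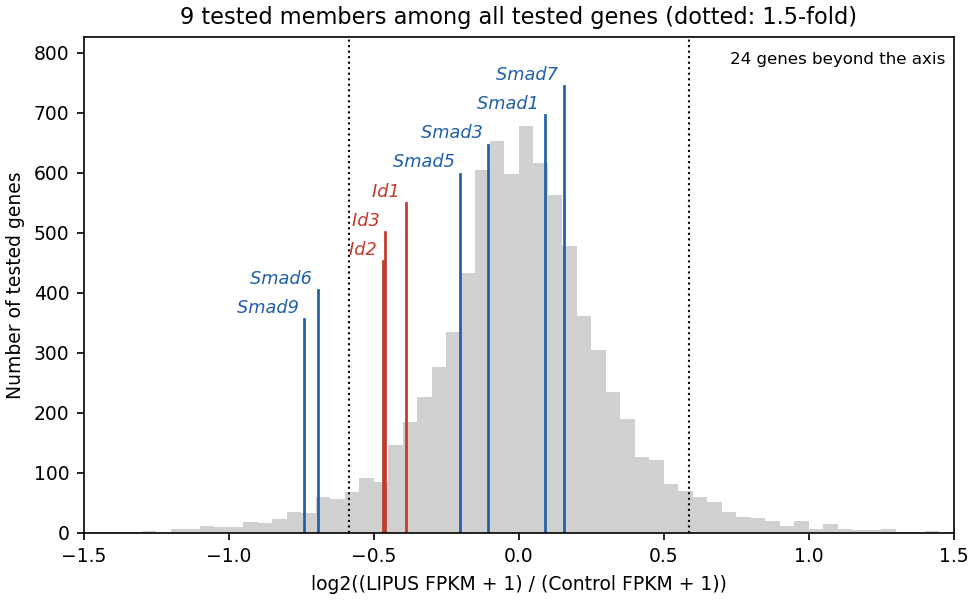
Number of tested genes at each log2((LIPUS FPKM + 1) / (Control FPKM + 1)), with red lines for the Id genes, blue lines for the Smad genes and dotted lines at 1.5-fold; 24 genes lie beyond the axis. The 3 tested Id genes lie between -0.47 and -0.39, and the Smad genes range from -0.74 for Smad9 to 0.15 for Smad7.

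The other genes of the pathway were grouped by role into 9 lists with 132 different genes, of which 77 were tested. At least 1.5-fold higher were 5 of these 77 and at least 1.5-fold lower 2, beside the 4.09% and 3.97% of all tested genes. Of 17 receptors and coreceptors, 9 were tested, none passed 1.5-fold in either direction, and the median log2 difference was -0.01. The most abundant was Eng (endoglin), a coreceptor, with an FPKM of 67.0 in the Control group and 59.1 in the LIPUS group. Of 18 BMP and TGF-beta ligands, only Inhba and Tgfb1 were tested, and 7, Bmp2 and Bmp6 among them, were listed at 0 in both groups. Inhba, which encodes the subunit of activin A, had an FPKM of 711 in the Control group and 852 in the LIPUS group. Tgfb1 had an FPKM of 80.9 in the Control group and 92.0 in the LIPUS group.

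The list of extracellular antagonists holds proteins that act on ligands outside the cell, although not all on BMP: Fst and Fstl3 mainly bind activin, Sost is chiefly a Wnt antagonist and Crim1 is a transmembrane protein. All 7 tested genes of the 15 on this list were higher with LIPUS, with a median log2 difference of 0.50, and 3 of the 7 passed 1.5-fold (2 after rescaling both groups to an equal FPKM sum, when Bmper did not). Of all tested genes, 4139 of 8145 were higher and 4.09% passed 1.5-fold higher (3.62% after the rescaling). Fst (follistatin) had an FPKM of 44.2 in the Control group and 72.4 in the LIPUS group (0.70). Grem1 (gremlin), the most abundant of the list, had an FPKM of 67.7 in the Control group and 106 in the LIPUS group (0.64). Bmper had an FPKM of 24.4 in the Control group and 37.8 in the LIPUS group (0.61). Nbl1, Twsg1, Crim1 and Fstl3 were higher by 0.30 to 0.50 on the log2 scale, while Nog, Sost, Sostdc1, Cer1 and Chrdl2 were listed at 0 in both groups. These are values of the same 2 pooled groups as those of the Id genes, and any relation between them was not tested.

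**Figure D4:**
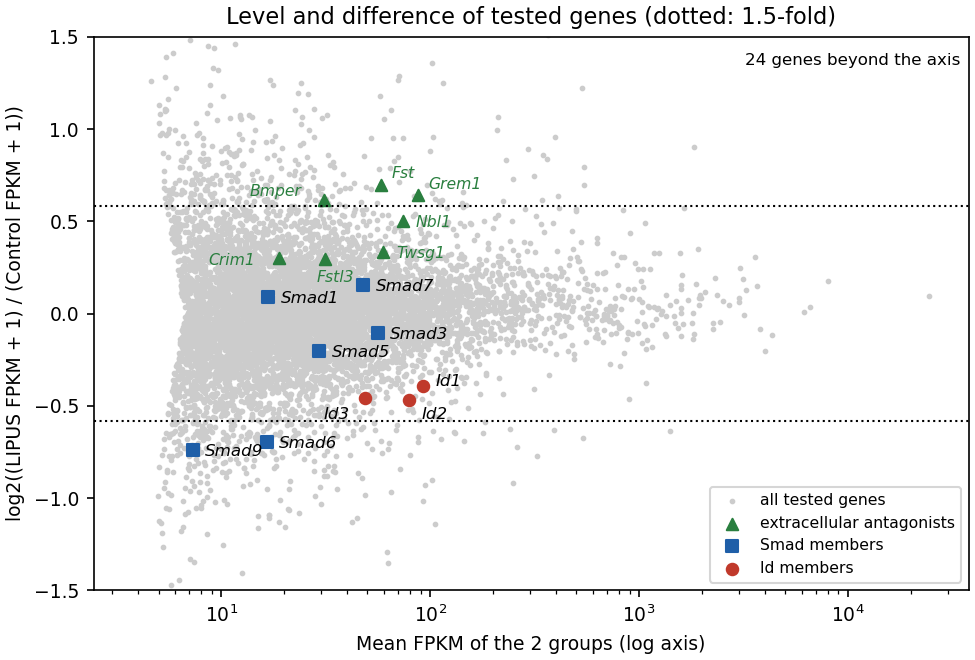
Mean FPKM of the groups (log axis) against log2((LIPUS FPKM + 1) / (Control FPKM + 1)) for all tested genes (grey), the Id (red circles) and Smad (blue squares) members and the extracellular antagonists (green triangles), with dotted lines at 1.5-fold. The 7 antagonists, with a mean FPKM of 18.9 to 86.9, lie above 0. Id1, Id2 and Id3, with a mean FPKM of 48.6 to 92.3, lie below it, and 24 genes lie beyond the axis.

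Genes acting on Smads inside the cell, such as the ubiquitin ligases Smurf1 and Smurf2, lay on both sides of zero. Of 27 such regulators 21 were tested, 11 were higher and 10 lower, none by 1.5-fold, with a median log2 difference of 0.03. Pmepa1, the most abundant of them, had an FPKM of 242 in the Control group and 220 in the LIPUS group. Among 12 tested partners and coactivators of Smads, 9 were lower and 3 higher, with a median log2 difference of -0.16, and 1 was at least 1.5-fold lower and none higher. This was Runx2, the transcription factor required for osteoblast formation and a partner of Smads, with an FPKM of 24.4 in the Control group and 14.8 in the LIPUS group (-0.69). Runx1 was the most abundant of them, with an FPKM of 75.4 in the Control group and 78.1 in the LIPUS group.

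The E proteins that Id proteins bind had similar values in both groups. Tcf3 had an FPKM of 35.0 in the Control group and 33.6 in the LIPUS group, Tcf4 37.5 and 37.6, and Tcf12 86.1 and 82.9. Of the 10 tested bHLH genes and other partners of Id proteins, 1 passed 1.5-fold. It was Hes1, a repressor of the bHLH class, with an FPKM of 10.7 in the Control group and 19.0 in the LIPUS group (0.77). Bhlhe40 was the most abundant, with an FPKM of 113 in the Control group and 152 in the LIPUS group.

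Other genes known to respond to BMP differed in both directions. Of 18 such targets 6 were tested, of which 2 were at least 1.5-fold lower and 2 at least 1.5-fold higher. The lower ones were Runx2 and Atoh8, a bHLH factor with an FPKM of 9.38 in the Control group and 5.87 in the LIPUS group (-0.60), and the higher ones were Hes1 and Grem1. Dlx3, a homeobox factor and the most abundant of them, had an FPKM of 144 in the Control group and 169 in the LIPUS group. Of the 15 tested targets of TGF-beta and Smad3, 11 were higher and 4 lower, and only Ctgf passed 1.5-fold on the scale used here. Cdkn2b, a cell cycle inhibitor, had an FPKM of 9.33 in the Control group and 6.0 in the LIPUS group (-0.56), and it counted as lower by 1.5-fold with a smaller pseudocount, with none and after rescaling. Ctgf, a matrix-associated growth regulator, had an FPKM of 1271 in the Control group and 2375 in the LIPUS group (0.90). Fn1 (fibronectin), the most abundant of these targets, had an FPKM of 1915 in the Control group and 2028 in the LIPUS group.

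**Figure D5:**
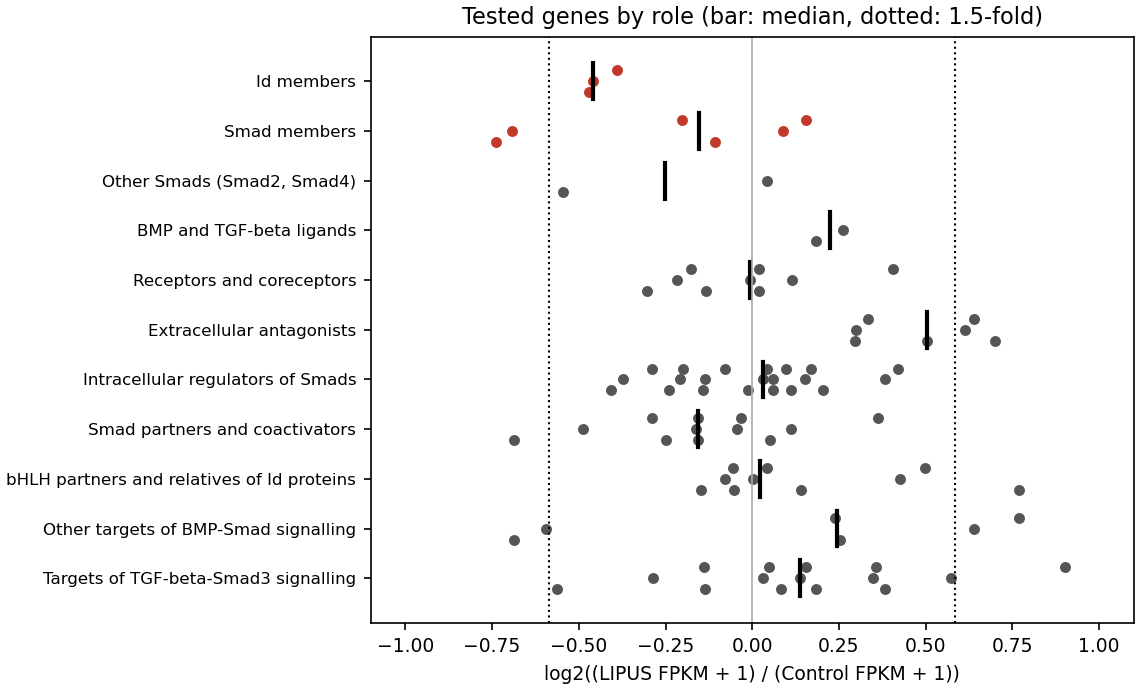
Log2((LIPUS FPKM + 1) / (Control FPKM + 1)) of every tested gene by role, with members in red, other pathway genes in grey, a bar at each median and dotted lines at 1.5-fold. The 3 tested Id genes lie left of 0 and the 7 tested antagonists right of it.

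The identity of the cells was checked against marker lists. Of 11 osteocyte and bone markers 6 were tested, and their summed level over all 11 was 1860 FPKM in the Control group and 1714 FPKM in the LIPUS group. Pdpn, Gja1, Col1a1 and Cd44 stayed within 1.5-fold. Alpl, the alkaline phosphatase of osteoblasts, had an FPKM of 293 in the Control group and 190 in the LIPUS group (-0.63). Dmp1, a matrix protein of osteocytes, had an FPKM of 3.04 in the Control group and 7.65 in the LIPUS group (1.1). Bglap and Phex were listed at 0 in the Control group and were at most 1.58 FPKM in the LIPUS group, while the late osteocyte genes Sost, Mepe and Fgf23 were listed at 0 in both groups. None of the 4 macrophage markers was tested. Ptprc and Adgre1 were listed at 0 in both groups, Csf1r had 0.236 FPKM in the Control group and 0.233 FPKM in the LIPUS group, and Cd68 had 5.32 and 1.72 (-1.21). Cd68 lies under the level of the tested genes, and as for Id4 its difference cannot be read as a change. Of the 4 endothelial markers, Cdh5, Kdr and Tek were listed at 0 in both groups and Pecam1 had 0.496 FPKM in the Control group and was listed at 0 in the LIPUS group. The 3 chondrocyte markers had a summed FPKM of 10.9 in the Control group and 9.26 in the LIPUS group, with Acan at 0. The 3 adipocyte markers had a summed FPKM of 72.1 in the Control group and 54.4 in the LIPUS group, in which Fabp4 had 52.3 and 30.4, Pparg 19.2 and 23.8, and Adipoq 0.643 and 0.193. Fabp4, which was tested, was at least 1.5-fold lower with LIPUS (-0.76), like Smad6 and Smad9. The part of such differences in the values of the Id and Smad genes was not tested. In bulk RNA, fewer cells expressing a gene and less RNA per cell cannot be told apart.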

How the data were processed

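The members and the gene lists were chosen with earlier results of these data known. Per the labels and the methods, paired reads of TruSeq Stranded mRNA libraries were cut with Trimmomatic 0.36 and placed on GRCm38 by TopHat2 2.1.0 with Bowtie2 2.2.6.0. FPKM came from Cufflinks (2.1.1 in the submitters' processing notes, another version in the methods) with Ensembl transcripts. The processing notes also name Cuffdiff, without a version, and how it scaled the libraries of a group was not examined here. The authors deposited 1 FPKM per group and a status that says whether a gene was tested. The table's fold changes, test statistics, p-values and q-values are the authors' comparison and were not used.

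From the FPKM, log2 ratios with a pseudocount of 1 were computed in Python 3.11.15 (numpy 2.4.6, pandas 2.3.3, matplotlib 3.10.9). Differences of at least 1.5-fold on this scale were counted among the 8145 genes with the status OK. The counting step was run on simulated data with large made differences, which checks the code and not the differences reported here. Alternatives were other pseudocounts, thresholds and FPKM filters, rescaling to an equal FPKM sum and centring on the median. The genes named are the members, Smad2, Smad4 and, from each list, the genes past 1.5-fold and the most abundant one. Other list genes and markers were named after their values were seen, and so was the comparison with GC-rich windows chosen. Gene models came from GENCODE M21 (APPRIS principal transcripts), matched for all 10 members by Ensembl identifier, and promoters from RefSeq by symbol.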

Additional observations from a re-analysis of the deposited data

How the results depend on the processing

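No paired analysis was possible because each group has a single pooled value, and no replicate could be left out for the same reason. The depth of each library is not in the table, and the methods give only a round figure per sample, so no counting error was computed. The settings for single members were a pseudocount of 0.1 or none, rescaling to an equal FPKM sum and centring on the median of tested genes. The rescaling shifted each ratio by -0.05 before the pseudocount was added. It also made the values of both groups larger, so a pseudocount of 1 weighed less, and Smad9 went from -0.74 to -0.82. In these settings, all 40 recomputed log2 differences of the members kept their sign. Of these, 38 also stayed on their side of 1.5-fold. The other 2 belong to Id4, which was -0.60 with a pseudocount of 0.1 and -0.70 with none, as a value under 1 FPKM. The count of lower members, 2 as reported, was 5 past 0.32 on the log2 scale and 0 at 2-fold. It was 1 (Smad6) among the 8 tested members with a mean FPKM of at least 10. Smad9, the only tested member under 10, was the other. No member was higher past the threshold in any of these settings. Of all tested genes, 1029 were higher and 1019 lower past 0.32 on the log2 scale, and 65 higher and 54 lower at 2-fold. Among all 11999 genes with an FPKM of at least 1 in either group, tested or not, 804 were higher and 815 lower (6.70% and 6.79%). Of the 6719 tested genes with a mean FPKM of at least 10, 206 were higher and 192 lower (3.07% and 2.86%). Of the 1426 tested genes under 10, 127 were higher and 131 lower (8.91% and 9.19%). After rescaling to an equal FPKM sum, 295 of all tested genes were higher and 415 lower (3.62% and 5.10%), and the 2 lower members were still 2. The counts for the pathway lists moved by more than 1.5 times in 28 of 136 recomputations. After the same rescaling Smad2 and Cdkn2b passed 1.5-fold and Bmper did not, and Cdkn2b also passed with a pseudocount of 0.1 or none.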

Other observations

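Some pathway genes received no test. Of 55 list genes without a test, 23 had an FPKM of at least 1 in either group, and 5 of these differed by at least 1.5-fold, 4 lower and 1 higher with LIPUS. This share, 21.7%, lies near the 25% of all 3854 genes without a test at this level (12.8% lower and 12.2% higher). All 5 lie under the level of the tested genes, and as for Id4 their differences cannot be read as changes. They were picked out after their values were seen. Bmp4, a ligand of the BMP receptors, was the higher one, with an FPKM of 2.28 in the Control group and 4.96 in the LIPUS group (log2 difference 0.86). Runx3, a relative of Runx2, had an FPKM of 5.74 in the Control group and 1.83 in the LIPUS group (-1.25). Zfp423, a zinc finger partner of BMP Smads, had an FPKM of 2.19 in the Control group and 0.99 in the LIPUS group (-0.68). Dlx5, a homeobox target of BMP in osteoblasts, had an FPKM of 1.13 in the Control group and 0.188 in the LIPUS group (-0.84). The corepressor Tgif2 had an FPKM of 1.11 in the Control group and was listed at 0 in the LIPUS group.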
